A study of Mus musculus with 6 samples.

Results

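The small leucine-rich proteoglycans are secreted proteins of the extracellular matrix, and 10 genes of the family were followed here in mouse skin fibroblasts: decorin (Dcn), biglycan (Bgn), asporin (Aspn), lumican (Lum), fibromodulin (Fmod), prolargin (Prelp), keratocan (Kera), osteomodulin (Omd), osteoglycin (Ogn) and epiphycan (Epyc). All probe sets whose only gene symbol was in this list were taken, which gave 21 of the 45037 probe sets that were not control features, and 10 of 18193 named genes. The rule was membership of the family, and the family was taken up with earlier results of these data known.

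Total RNA was measured on 6 Affymetrix mouse arrays, with 2 arrays in each of 3 groups. All cells were primary dermal fibroblasts at passage 4 from explants of newborn mice aged 0-2 days (strain label B6). Their mothers were wild-type BL6 females and their fathers carried an X-linked GFP transgene (chicken β-actin promoter, CMV enhancer) in a 129/ICR mixed background. Daughters of such a cross are heterozygous, and fibroblasts without GFP were sorted from them, which are the cells with the transgene on the inactive X chromosome. The control group was left untreated over the same 48 hours and 24 hours of recovery and was not sorted again. The other cells received 4 μM 5-aza-2'-deoxycytidine, which lowers DNA methylation in dividing cells, for 48 hours, recovered for 24 hours and were then sorted into a GFP-negative group, in which the transgene stayed silent, and a GFP-positive group, in which it had become active. Control replicate 2 has the gender label "mix" and the other 5 arrays have "female". The treated groups differ from the control group by the drug and by the further sort, and these cannot be told apart. The study asked which genes the loss of DNA methylation affects and whether sorting for active GFP enriches the affected cells.

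Each protein of the family has a core of leucine-rich repeats, and most members carry chondroitin sulfate, dermatan sulfate or keratan sulfate chains. Members bind collagen fibrils and set fibril diameter and spacing, and decorin, biglycan and asporin also bind growth factors of the TGF-β family. Decorin, biglycan and asporin form class I, lumican, fibromodulin, prolargin, keratocan and osteomodulin class II, and osteoglycin and epiphycan class III. Fibroblasts are the main source of decorin and lumican in the dermis, keratocan is best known from the corneal stroma, and epiphycan from cartilage.

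Most members had lower signals in the treated groups than in control. Decorin, asporin, lumican and prolargin had at most 27.6% of the control signal of the same replicate number in both treated groups at every tested probe set but Prelp 1416322_at, which is given separately, and osteoglycin had 24.6% to 69.1%. Biglycan lay between 74.0% and 102.5% of control. Keratocan and epiphycan could not be compared, since they stayed low or scattered on all arrays. With 2 arrays a group, limma (adjusted p under 0.05) called 0 of the 18 member probe sets tested in either comparison with control. Of all probe sets, it called 0.0333% (GFP-positive) and 0.0037% (GFP-negative) lower. At an unadjusted p under 0.05, 9 and 8 of the 18 passed, beside 7.04% and 5.07% of all probe sets. With the replicate number as a block, 9 and 8 of the 18 were called lower, beside 3.06% and 1.68% of all probe sets. These calls were lost when the block fit was run without the mean-variance trend of limma (0 of the 18 called). The labels do not say what arrays of the same number share. One of the 18, Prelp 1416322_at, passed the filter on low signals through the control arrays alone. Without it the unadjusted counts were 8 and 7 of 17, and the counts with the block 8 and 7. Between the GFP-positive and GFP-negative groups the median log2 difference over the 18 member probe sets was -0.06.

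The deposited values were MAS5 signals. Their 2% trimmed mean was about 500 on 4 arrays but 62.0 (GFP-negative) and 50.5 (GFP-positive) on the treated replicate 2 arrays, and all were brought to 500. The lower quartile of the scaled signals then lay at 38.7 to 42.6 for replicate 1 and at 19.2 to 22.6 for replicate 2, so the arrays fall into 2 sets by replicate number, and differences are given below within each number. The labels call the replicates biological but do not say that they came from separate cultures or animals, and p-values here measure no more than the spread between such samples. In bulk RNA, fewer cells of a type and less RNA per cell cannot be told apart. All 11 fibroblast markers were measured, among them Vim at 36593 to 53040 and Col1a2 at 30571 to 40731. The summed signal of these 11 markers was 177490 and 186411 in the control group, 151099 and 142880 in the GFP-negative group and 141662 and 139369 in the GFP-positive group. The sums were lower in both treated groups, and the median log2 difference from control over the 11 was -0.66 in GFP-negative and -0.88 in GFP-positive cells. Fap, for example, had signals of 1099.8 and 855.8 in control, 454.5 and 294.3 in GFP-negative and 368.6 and 121.7 in GFP-positive cells. Vim was about as bright in all groups.

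The 5 markers of tendon and ligament cells summed to 8923 and 4676 in control, 8132 and 3089 in GFP-negative and 7957 and 5428 in GFP-positive cells, with medians over the 4 tested of 0.34 and 0.63. Thbs4 of this list lay below the lower quartile on all 6 arrays. Tnmd was at 5199.9 and 2539.6 in control, 1319 and 901 in GFP-negative and 1212 and 542 in GFP-positive cells, whereas Egr1 was at 3594 and 1957 in control, 6432 and 2059.8 in GFP-negative and 6413 and 4665 in GFP-positive cells. The 5 endothelial markers summed to 423 and 396 in control, 508 and 233 in GFP-negative and 418 and 163 in GFP-positive cells, with medians of -0.62 and -0.58 over the 3 tested. Pecam1 and Vwf lay below the lower quartile on all 6 arrays, and Kdr was at 117 to 256. The 5 leukocyte markers summed to 209 to 397 in control, 352 to 501 in GFP-negative and 446 to 479 in GFP-positive cells, with medians of 0.65 and 0.72 over the 2 tested. The 5 smooth muscle markers summed to 69644 and 102658.5 in control, 85005 and 92544 in GFP-negative and 84438 and 107517 in GFP-positive cells. Their medians were 0.08 (GFP-negative) and 0.185 (GFP-positive). The 7 cartilage markers summed to 428.5 to 1296 in control, 648 to 870.5 in GFP-negative and 539 to 816 in GFP-positive cells. The 4 corneal stroma markers summed to 152 to 482 on all arrays. Not all lists read are given. The part of these marker lists in the results was not tested.

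The drug is built into new DNA and traps the enzymes that methylate CG dinucleotides. The promoters of Prelp, Aspn and Ogn, whose signals were lower in both treated groups than in control, are shown beside that of biglycan. Those of Fmod and Omd are not printed, and their CG counts are given below. Mean differences from control were below 0 for Fmod and Omd too. However, Omd was not called with or without the block, and several Fmod probe sets changed sign on leaving out an array. Biglycan signals were 74.0% to 102.5% of control, and saturation of its probe sets could not be checked. Each is the 250 bases before the gene's start on the coding strand, from RefSeq (GRCm38.p6), with every CG in capitals. CG reads the same on both strands.
Prelp, chr1:133921402-133921651, minus strand: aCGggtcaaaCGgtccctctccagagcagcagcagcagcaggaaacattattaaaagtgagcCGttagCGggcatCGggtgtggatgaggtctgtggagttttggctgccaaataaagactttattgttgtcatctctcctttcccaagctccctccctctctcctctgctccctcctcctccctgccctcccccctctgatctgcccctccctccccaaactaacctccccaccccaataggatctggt
Aspn, chr13:49544193-49544442, plus strand: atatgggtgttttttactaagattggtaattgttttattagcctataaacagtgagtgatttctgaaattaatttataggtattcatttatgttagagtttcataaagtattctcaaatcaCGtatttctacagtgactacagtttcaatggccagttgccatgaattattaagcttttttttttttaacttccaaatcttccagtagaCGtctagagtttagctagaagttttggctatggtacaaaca
Ogn, chr13:49607765-49608014, plus strand: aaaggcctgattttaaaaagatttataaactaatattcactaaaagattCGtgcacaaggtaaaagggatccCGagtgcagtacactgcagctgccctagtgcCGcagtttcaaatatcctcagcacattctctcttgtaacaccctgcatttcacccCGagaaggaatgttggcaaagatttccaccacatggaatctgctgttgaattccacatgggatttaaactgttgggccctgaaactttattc
Bgn, chrX:73483351-73483600, plus strand: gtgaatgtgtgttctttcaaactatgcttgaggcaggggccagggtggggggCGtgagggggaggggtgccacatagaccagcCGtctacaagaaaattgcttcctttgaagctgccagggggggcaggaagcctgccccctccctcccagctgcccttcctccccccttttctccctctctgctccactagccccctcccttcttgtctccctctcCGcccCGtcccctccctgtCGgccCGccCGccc
The table held 9 promoters of 8 of the 10 members, not of Dcn or Lum. The Prelp window held 5 CG, the Aspn window 2, the Ogn window 4 and the Bgn window 7. Over the 32851 promoters in the table, the median was 6 CG with quartiles of 2 and 16, and 46.3% of promoters held at least as many as Bgn, 55.6% as many as Prelp, 62.2% as many as Ogn and 81.2% as many as Aspn. Fmod had 2 CG, Kera 1, Omd 1, and the 2 Epyc promoters 2 and 0. None of the members' windows reached the upper quartile of all promoters. Methylation itself was not measured in this series.

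**Figure D1:**
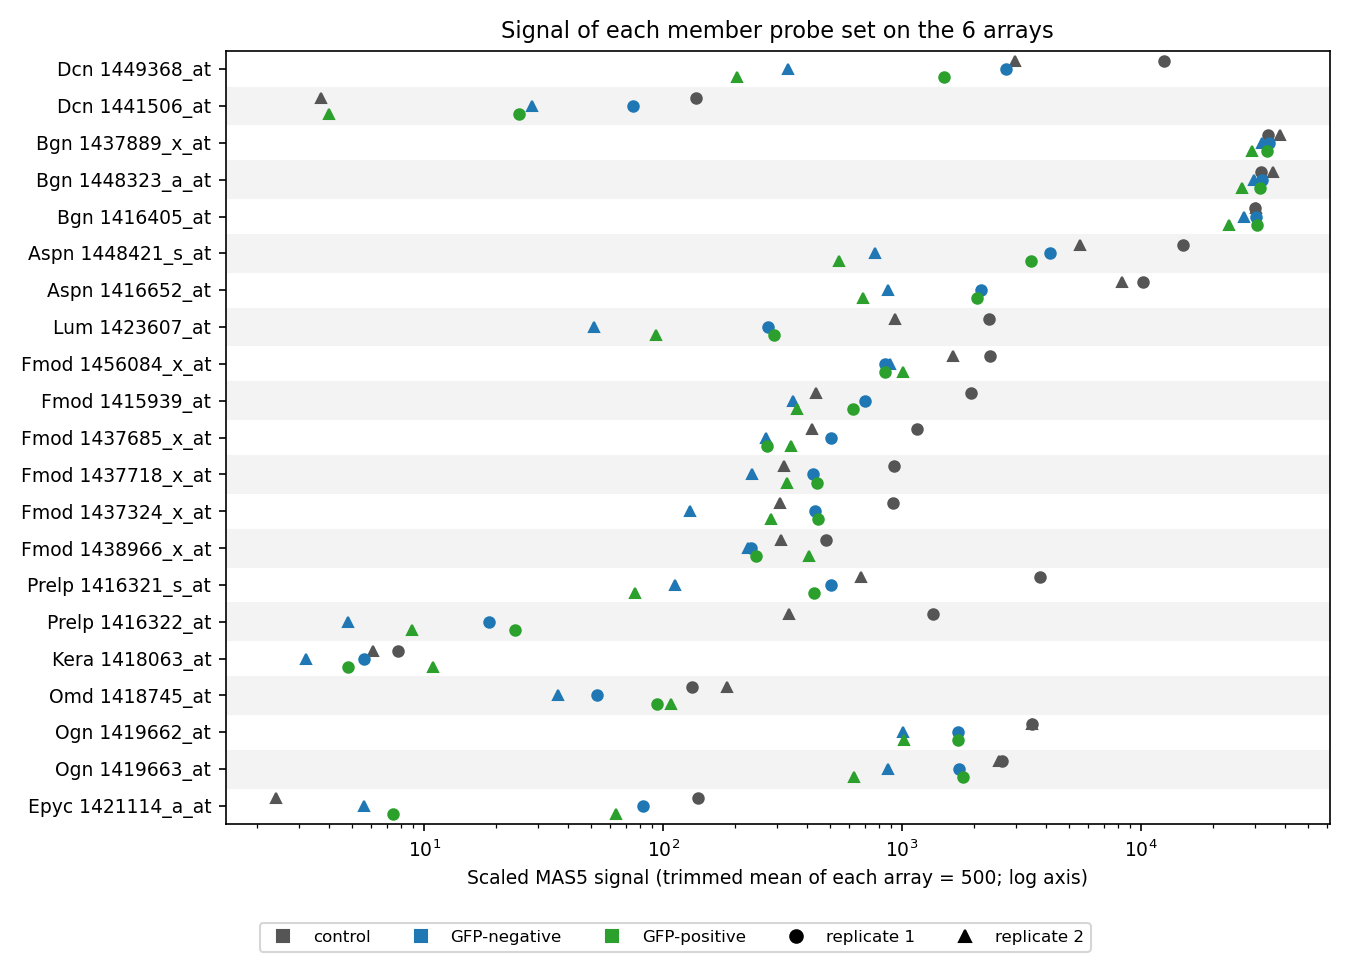
Scaled MAS5 signal on a log axis for each of the 21 member probe sets, 1 row each. Colour marks the group, circles are replicate 1 and triangles replicate 2. The control points of Dcn 1449368_at, Aspn, Lum, Prelp and Ogn lie to the right of the treated points of the same shape, and the Bgn points lie together at the right edge.

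Decorin binds collagen fibrils and growth factors and was read by 2 probe sets. At 1449368_at the control signals were 12516 and 2957 (replicate 1, then replicate 2, as in all pairs of values that follow), the GFP-negative signals 2720.4 and 334, and the GFP-positive signals 1496 and 203. Both arrays of each treated group lay below both controls, but control replicate 2 and GFP-negative replicate 1 lay close to each other. The GFP-positive signal was 11.95% of control within replicate 1 and 6.86% within replicate 2, and the GFP-negative signal was 21.7% and 11.3%. The log2 difference from control was -3.36 ± 1.15 (SE) in GFP-positive and -2.61 ± 1.15 in GFP-negative cells, which limma did not call (adjusted p = 0.532 and 0.998). The second probe set, 1441506_at, was at 138 and 3.7 in control and at 74.6, 28.2, 24.9 and 4.0 in the treated arrays. It did not pass the filter on low signals (a mean of 67.71 over the 6 arrays) and was not tested.

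Asporin, a relative of decorin without the usual glycosaminoglycan attachment site, was read by 2 probe sets. At 1416652_at the signals were 10185 and 8307 in control, 2129.8 and 876 in GFP-negative and 2067 and 685 in GFP-positive cells. The control arrays were close to each other here, and the brightest treated array had 2129.8 against the lower control of 8307. This probe set had the lowest adjusted p of the family in GFP-positive cells (-2.91 ± 0.55, adjusted p = 0.154 by limma), and in GFP-negative cells the difference was -2.72 ± 0.55 (adjusted p = 0.28). At 1448421_s_at the signals were 15017 and 5567 in control, 4142 and 769 in GFP-negative and 3470.3 and 542 in GFP-positive cells, with log2 differences of -2.33 ± 0.98 and -2.70 ± 0.98 (adjusted p = 0.97 and 0.578 by limma). Both probe sets placed all 4 treated arrays below both controls.

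Biglycan, the relative of decorin encoded on the X chromosome, was among the brightest genes of the arrays: at 1437889_x_at, 0.0444% to 0.38% of probe sets were as bright or brighter. Its signals there were 34050 and 38016 in control, 34191 and 31945 in GFP-negative and 33665 and 29083 in GFP-positive cells. The replicate 1 arrays lay within a few percent of each other (100.4% and 98.9% of control in GFP-negative and GFP-positive cells), and the treated replicate 2 arrays were at 84.0% and 76.5%. The log2 difference was -0.20 ± 0.21 in GFP-positive and -0.12 ± 0.21 in GFP-negative cells at this probe set. The other probe sets, 1448323_a_at and 1416405_at, had -0.225 ± 0.22 and -0.17 ± 0.23 in GFP-positive cells, and -0.13 ± 0.22 and -0.08 ± 0.23 in GFP-negative cells. None of these differences was called (adjusted p of 0.997 to 1 by limma). Both GFP-positive arrays lay below both controls at 1437889_x_at and 1448323_a_at, but not at 1416405_at. At 1416405_at the difference turned to 0.026 on leaving out GFP-positive replicate 2, and to 0.01 for the other treated group on leaving out its replicate 2. Whether so bright a probe set was near saturation could not be checked with these files.

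Lumican, a keratan sulfate proteoglycan that organises collagen fibrils in skin and cornea, was read by 1 probe set, 1423607_at. Its signals were 2320 and 934 in control, 274 and 51.6 in GFP-negative and 291 and 93.0 in GFP-positive cells. All treated arrays lay below both controls, the highest treated signal being 291 and the lower control 934. Within replicate 1 the treated signals were 11.8% (GFP-negative) and 12.5% (GFP-positive) of control, and within replicate 2 they were 5.52% and 9.96%. The log2 difference was -3.25 ± 0.73 in GFP-negative and -2.92 ± 0.73 in GFP-positive cells (adjusted p = 0.387 and 0.312 by limma).

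Prolargin, which anchors basement membranes to the underlying collagen, was read by 2 probe sets. At 1416321_s_at the signals were 3795 and 670.2 in control, 502 and 112 in GFP-negative and 429 and 76.2 in GFP-positive cells. The treated signal was between 11.3% and 16.7% of the control signal of the same number, although the 2 control arrays themselves differed 5.66-fold. The log2 differences were -2.57 ± 0.98 in GFP-negative and -2.89 ± 0.98 in GFP-positive cells (adjusted p = 0.872 and 0.525 by limma). At 1416322_at the signals were 1352 and 336 in control, 18.6 and 4.8 in GFP-negative and 23.9 and 8.9 in GFP-positive cells. All 4 treated signals lay below the lower quartile of their array, so this probe set passed the filter through the control arrays alone, and no fold is given. Its log2 difference of -3.94 ± 0.74 in GFP-positive and -4.09 ± 0.74 in GFP-negative cells (adjusted p = 0.155 and 0.233 by limma) rests on the offset of 30.64 added before taking log2. Over the alternatives it ran from -4.90 to -2.57 in GFP-positive and from -5.24 to -2.62 in GFP-negative cells.

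Fibromodulin, which binds collagen beside lumican and is abundant in tendon, was read by 6 probe sets that agreed less with each other. At the brightest, 1456084_x_at, the signals were 2331 and 1632 in control, 850.4 and 890.0 in GFP-negative and 851 and 1009 in GFP-positive cells. Here the treated arrays were close together and all below both controls, with log2 differences of -1.14 ± 0.26 in GFP-negative and -1.05 ± 0.26 in GFP-positive cells (adjusted p = 0.387 and 0.294 by limma). At the other 5, the difference ran from -0.68 to -1.05 in GFP-negative and from -0.265 to -1.12 in GFP-positive cells. Within replicate 1 the GFP-positive signals at these 5 were 23.65% to 50.9% of control, but within replicate 2 they were 81.75% to 131%. Control replicate 1 was 1.54 to 4.43 times control replicate 2 at these probe sets. Without control replicate 1, the GFP-positive difference turned to 0.12 at 1415939_at, 0.22 at 1437718_x_at, 0.19 at 1437324_x_at and 0.02 at 1438966_x_at, and the GFP-negative difference to 0.165 at 1415939_at. Without GFP-positive replicate 1 it was 0.075 at 1438966_x_at. Probe sets of the _x_at type can bind related transcripts, and 5 of the 6 are of that type.

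Osteomodulin, a keratan sulfate member best known from mineralised tissue, was dim. At 1418745_at its signals were 132 and 186 in control, 52.9 and 36.3 in GFP-negative and 94.1 and 108 in GFP-positive cells. The GFP-negative arrays were the lowest and the GFP-positive arrays lay between them and the controls, with no overlap between groups. The log2 difference from control was -1.33 ± 0.52 in GFP-negative and -0.51 ± 0.52 in GFP-positive cells (adjusted p = 0.896 and 0.997 by limma). Keratocan, read by 1418063_at, was at 7.8 and 6.1 in control, 5.6 and 3.2 in GFP-negative and 4.8 and 10.9 in GFP-positive cells. All 6 values lay below the lower quartile of their arrays, and it was not tested.

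Osteoglycin, also called mimecan, is a small member found in many connective tissues and was read by 2 probe sets. At 1419662_at the control arrays were nearly equal (3481 and 3494), as were the treated groups within each number: 1708 and 1012 in GFP-negative against 1715 and 1018 in GFP-positive cells. The treated signal was 49.0% and 49.3% of control within replicate 1 and 29.0% and 29.1% within replicate 2, in GFP-negative and GFP-positive cells. The log2 difference was -1.39 ± 0.33 and -1.38 ± 0.33, and limma called neither (adjusted p = 0.445 and 0.289). At 1419663_at the signals were 2608 and 2549.7 in control, 1739 and 871 in GFP-negative and 1802 and 626 in GFP-positive cells, with log2 differences of -1.05 ± 0.49 and -1.25 ± 0.49 (adjusted p = 1 and 0.641 by limma). Both probe sets had all 4 treated arrays below both controls. Epiphycan, at 1421114_a_at, was scattered (140 and 2.4 in control, 82.6 and 5.6 in GFP-negative, 7.4 and 63.3 in GFP-positive cells) and was not tested.

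**Figure D2:**
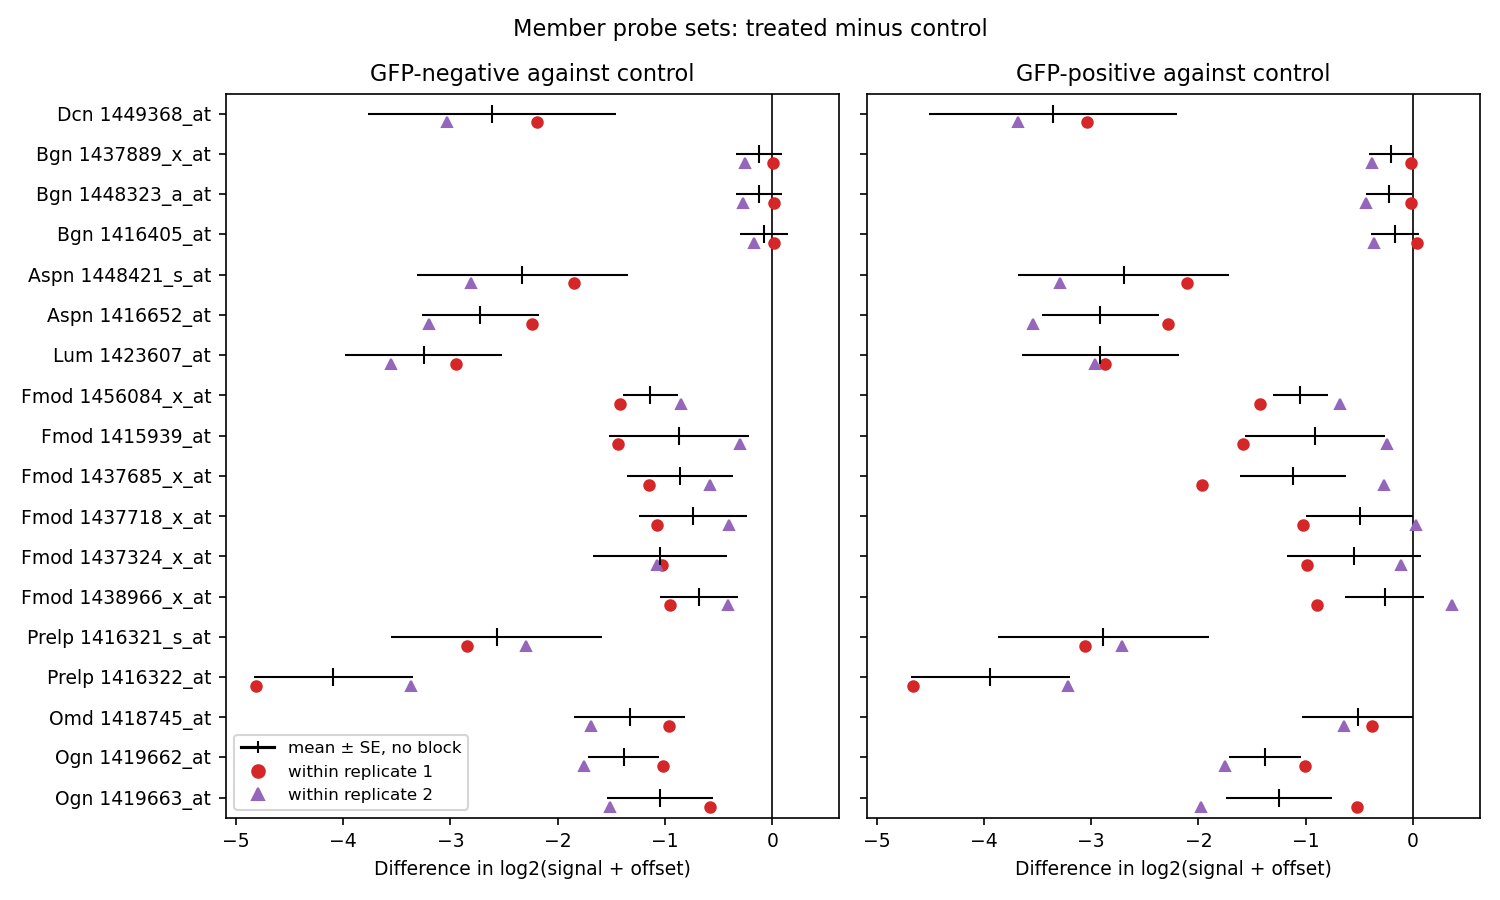
Treated minus control on the log2 scale for the 18 member probe sets tested, GFP-negative cells on the left and GFP-positive cells on the right. Black bars are the mean difference ± SE without a block, circles the difference within replicate 1 and triangles within replicate 2. Circles and triangles lie left of 0 for Dcn, Aspn, Lum, Prelp, Omd and Ogn in both panels and near 0 for Bgn.

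The first comparison over the family set GFP-positive against control cells. Of the 21 member probe sets, 18 passed the filter, from 8 genes. The median log2 difference over these 18 was -1.08, with -1.22 within replicate 1 and -0.66 within replicate 2, beside 0.04 over all 27022 probe sets tested. Without Prelp 1416322_at the median over the 17 others was -1.05. All 18 mean differences were below 0, where the median over all probe sets was above 0 (0.04). Several of the 18 read the same gene, Fmod and Bgn most often, so they are not separate members. Within both replicate numbers 15 were below 0, as were 28.5% of all probe sets. Limma called 0 of the 18 at an adjusted p under 0.05 without a block, beside 0.0333% of all probe sets called lower. At an unadjusted p under 0.05, 9 of the 18 passed, beside 7.04% of all probe sets. At 13 probe sets of 8 genes both treated arrays lay below both controls, as did 14.9% of all probe sets. Among these were Bgn 1437889_x_at and 1448323_a_at, with log2 differences of only -0.20 and -0.225. The signal was lower by at least 1 on the log2 scale within both replicate numbers at 7 of the 18 probe sets, from 5 genes, beside 1.23% of all probe sets. Without Prelp 1416322_at these 3 counts were 8, 12 and 6 of 17.

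In GFP-negative against control cells, which share the control arrays with the first comparison, the median over the 18 member probe sets was -1.09, with -1.11 within replicate 1 and -1.30 within replicate 2, beside 0.04 over all probe sets. All 18 mean differences were again below 0, where the median over all probe sets was above 0. Within both numbers 15 were below 0, beside 26.8% of all probe sets. Limma called 0 of 18, beside 0.0037% of all probe sets called lower, and 8 of 18 had an unadjusted p under 0.05, beside 5.07% of all. Both treated arrays lay below both controls at 11 probe sets of 7 genes, beside 13.5% of all. The difference was at least 1 on the log2 scale within both replicate numbers at 8 probe sets of 6 genes, beside 0.918% of all. Without Prelp 1416322_at these 3 counts were 7, 10 and 7 of 17, and the median was -1.05.

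With the replicate number as a block in the limma fit, which compares the groups within each number, 9 of the 18 member probe sets were called lower in GFP-positive cells, beside 3.06% of all probe sets, and 8 in GFP-negative cells, beside 1.68% of all (8 and 7 of 17 without Prelp 1416322_at). They came from the same 6 genes in both comparisons: Dcn, Aspn, Lum, Fmod, Prelp and Ogn. The smallest blocked adjusted p was that of Dcn in GFP-positive cells (-3.36 ± 0.20, adjusted p = 6.69e-06), and in GFP-negative cells Lum (-3.25 ± 0.25) and Dcn (-2.61 ± 0.20) shared an adjusted p of 6.46e-05. Ogn 1419662_at was called in both (adjusted p = 0.00173 and 0.00237 with the block), and of the Fmod probe sets 1456084_x_at alone was (0.00961 and 0.00838). Bgn was not called with the block (adjusted p of 0.366 to 0.832), and neither was Omd (0.556 in GFP-positive and 0.138 in GFP-negative cells). These calls depended on the mean-variance trend in limma: with the block and no trend, 0 members were called, the lowest adjusted p being 0.0697 in GFP-positive and 0.112 in GFP-negative cells. Over the alternatives, the adjusted p of the members called with the block ran from 6.69e-06 to 1 in GFP-positive and from 6.46e-05 to 1 in GFP-negative cells. The labels do not say that a replicate number marks a shared culture, litter or day.

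**Figure D3:**
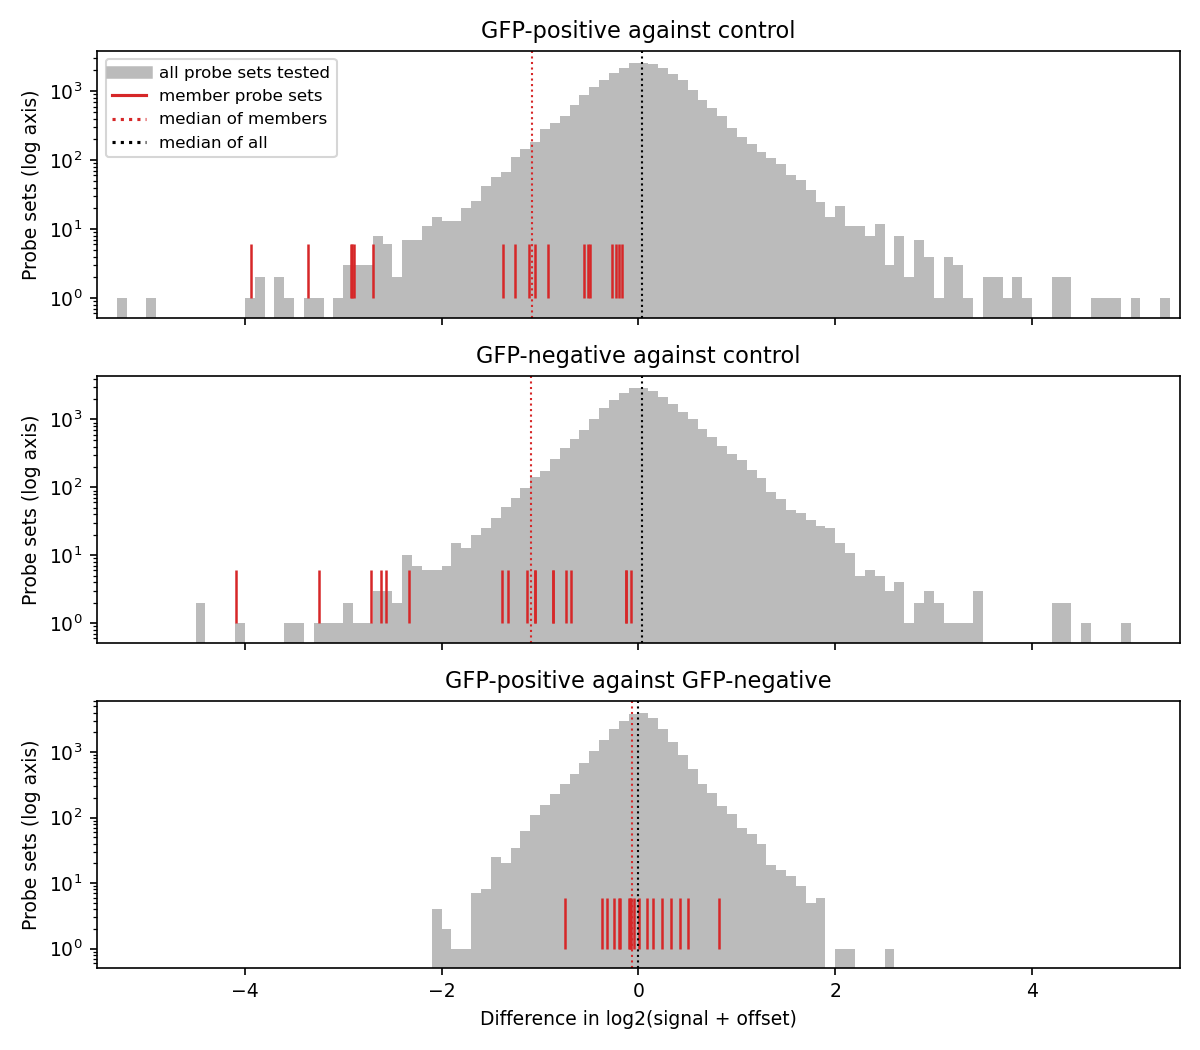
Histograms of the log2 difference over all 27022 probe sets tested (grey, log count axis) for each comparison, with the 18 member probe sets as red ticks. Dotted lines mark the medians. In both comparisons with control the members lie left of 0 (medians -1.08 and -1.09), and between the treated groups they lie around 0 (-0.06).

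GFP-positive and GFP-negative cells were both treated and both sorted again, and their comparison asks whether sorting for active GFP separates cells that differ at these genes. Limma called 0 of 18 member probe sets lower with or without the block, as it did for 0% of all probe sets. Without the block 0 of 18 had an unadjusted p under 0.05, beside 0.625% of all. With the block 1 of 18 had, beside 5.75% of all. The median over the members was -0.06, beside -0.004 over all probe sets, with 0.004 within replicate 1 and 0.04 within replicate 2. Decorin was lower in GFP-positive cells within both numbers, at 55.0% and 60.8% of the GFP-negative signal (-0.75 ± 1.15 without and ± 0.20 with the block, adjusted p = 1 and 0.725 by limma, unadjusted p = 0.00316 with the block). Osteomodulin was higher within both, at 178% and 297% (0.81 ± 0.52, adjusted p = 1). Lumican was at 106% and 180% (0.33 ± 0.73, adjusted p = 1). None of the 3 differences passed the test. Leaving out 1 treated array sets arrays of different replicate numbers against each other, which at Dcn differed 8.15-fold in GFP-negative and 7.37-fold in GFP-positive cells, and it turned the direction for Dcn and Lum. The Dcn difference was 0.71 without GFP-negative replicate 1 and 0.61 without GFP-positive replicate 2. The Lum difference was -0.61 without GFP-negative replicate 2 and -0.36 without GFP-positive replicate 1. The same 4 arrays, each left out in turn, moved the median of the members to between -0.31 and 0.43.

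The array sets also differed from each other at several members. Decorin was 4.23, 8.15 and 7.37 times brighter on the replicate 1 array than on the replicate 2 array in control, GFP-negative and GFP-positive cells. For Prelp 1416321_s_at these ratios were 5.66, 4.48 and 5.63, and for lumican 2.48, 5.32 and 3.13. Osteoglycin differed: at 1419662_at the 2 control arrays had a ratio of 0.996, and the treated pairs had ratios of 1.69 and 1.69 (1.688 and 1.685). A difference between the sets of at least 1 on the log2 scale in all 3 groups was found at 4 of the 18 member probe sets, from 4 genes. It was found at 3.69% of all probe sets. For Dcn the SE of a difference between groups was 1.15 without the replicate number in the fit and 0.20 with it.

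Genes of the wider pathway, taken from lists of enzymes, partners and receptors, were read at the brightest probe set of each gene. Of 21 collagen fibril partners tested, 0 were called by limma without the block in either comparison with control. With the block, 12 were lower and 0 higher in GFP-positive cells, and 6 lower and 0 higher in GFP-negative cells. Of all probe sets, the same fit called 3.06% lower and 3.15% higher in GFP-positive cells, and 1.68% lower and 1.9% higher in GFP-negative cells. The calls with the block, here and in the lists that follow, came from the fit with the mean-variance trend. Without the trend the block fit called 0 members, and its pathway calls are not given here. The list medians were -0.67 and -0.45. Col3a1, the fibrillar collagen of extensible tissue, had signals of 31909 and 39808 in control, 22927 and 19968 in GFP-negative and 20050 and 17471 in GFP-positive cells. Its difference was -0.93 ± 0.225 in GFP-positive cells (adjusted p = 0.293 by limma, 0.00339 with the block). Col11a1, a minor fibril collagen, went from 5410.2 and 2278 in control to 1342 and 817 in GFP-positive cells (-1.72 ± 0.45, adjusted p = 0.341, and 0.00019 with the block). Dermatopontin (Dpt), a matrix protein that binds decorin, went from 2162 and 541 to 714 and 179 (-1.50 ± 0.82, adjusted p = 0.839, and 0.001 with the block). Eln, Lox, Loxl1, Col6a1, Col6a2, Col1a1, Col5a1, Col12a1 and Col14a1 were the other partners called with the block in GFP-positive cells, all lower. Col1a1 and Col3a1 are also among the 11 fibroblast markers whose summed signal was lower in the treated groups.

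The proteases and inhibitors that act on the family held the only pathway gene called without the block. Adamts1, a metalloprotease of matrix proteoglycans, had signals of 4291 and 4964 in control, 1409 and 1483 in GFP-negative and 1146 and 909 in GFP-positive cells. It fell by 2.14 ± 0.22 on the log2 scale in GFP-positive cells (adjusted p = 0.0292 by limma, with 3.56e-05 to 0.293 over the alternatives), and the difference was -1.65 ± 0.22 in GFP-negative cells (adjusted p = 0.0993). The call was lost without the trend (with or without the block), with median centring and without any of the 4 arrays compared. Of 15 such genes tested, 4 were lower and 2 higher in GFP-positive cells with the block (beside 3.06% lower and 3.15% higher of all probe sets), and 3 lower and 2 higher in GFP-negative cells (beside 1.68% and 1.9%). Adamts5, another aggrecanase that cleaves matrix proteoglycans, had 8005 and 5186 in control against 1705 and 979.6 in GFP-positive cells (-2.29 ± 0.49, adjusted p = 0.216 by limma, 5.48e-05 with the block). Tll1, a protease that removes propeptides of matrix proteins, was called higher with the block. Its difference in GFP-positive cells was 0.91, with an SE of 0.16 with the block and 0.23 without it (adjusted p = 0.008 and 0.32 by limma). The others called with the block were the inhibitors Timp1, higher in both comparisons, and Timp3, lower in both, and the membrane protease Mmp14, lower in GFP-positive cells.

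The enzymes that build the sugar chains were read in the same way. Of 20 genes for assembly of chondroitin and dermatan sulfate, the median difference was -0.03 in GFP-positive and 0.04 in GFP-negative cells, and limma called 0 without the block. With the block, 1 was lower and 2 higher in GFP-positive cells (beside 3.06% and 3.15% of all probe sets), and 1 lower and 1 higher in GFP-negative cells (beside 1.68% and 1.9%). Csgalnact1, which starts chondroitin chains, was lower in GFP-positive cells (2333 and 1430 in control, 731 and 495 in GFP-positive). Its difference was -1.555, with an SE of 0.17 with the block and 0.34 without it (adjusted p = 0.000308 and 0.239 by limma). Chst11, a chondroitin sulfotransferase, was higher (835 and 1313 in control, 2084 and 3457 in GFP-positive). Its difference was 1.33, with an SE of 0.14 with the block and 0.34 without it (adjusted p = 0.000326 and 0.32 by limma). Chsy1 was also higher, by 0.695, with an SE of 0.145 with the block and 0.23 without it (adjusted p = 0.0173 and 0.506 by limma). Of 8 keratan sulfate enzymes, 6 had a difference above 0 in both comparisons, with medians of 0.42 and 0.475, and none was called without the block. With the block 2 were called higher in GFP-positive cells, Chst1 and Chst2, and 1 in GFP-negative cells, Chst1, beside 3.15% and 1.9% of all probe sets called higher. Chst1, the sulfotransferase that acts on keratan sulfate, had 218 and 186 in control, 542 and 635 in GFP-negative and 468 and 664 in GFP-positive cells. Its difference in GFP-positive cells was 1.34, with an SE of 0.23 with the block and 0.30 without it (adjusted p = 0.0068 and 0.246 by limma).

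Of 24 receptors and growth factors that members bind or modulate, 5 were lower and 2 higher in GFP-positive cells with the block, and 2 lower and 3 higher in GFP-negative cells, beside 3.06% and 3.15% of all probe sets and 1.68% and 1.9%. The list medians were -0.045 and 0.12. Without the block limma called 0. The PDGF receptor Pdgfra had 2180.4 and 1067 in control, 1203 and 295 in GFP-negative and 826 and 307 in GFP-positive cells. P2rx7, a purine receptor linked to biglycan signalling, had 105 and 41.3 in control, 484 and 109 in GFP-negative and 771 and 469 in GFP-positive cells (2.68 ± 0.64 in GFP-positive cells, adjusted p = 0.288 by limma, 0.000693 with the block). Cd44, a hyaluronan receptor, had 8061 and 8538 in control and 12718 and 12946 in GFP-positive cells. Its difference was 0.63, with an SE of 0.12 with the block and 0.20 without it (adjusted p = 0.0116 and 0.463 by limma). Pdgfra, Pdgfrb, P2rx7 and Cd44 were called with the block in both comparisons, Tgfbr2, Ccn4 and Igf1r lower in GFP-positive cells, and Tgfb3 higher in GFP-negative cells. Of 21 other proteoglycans, 3 were lower and 2 higher in GFP-positive cells with the block (beside 3.06% and 3.15% of all probe sets), and 3 lower and 1 higher in GFP-negative cells (beside 1.68% and 1.9%), with list medians of 0.19 and 0.13. The glypicans Gpc4 and Gpc6 and betaglycan (Tgfbr3) were the lower ones in both comparisons. Gpc6 was at -1.54 in GFP-positive cells, with an SE of 0.19 with the block and 0.43 without it. The syndecan Sdc3 was higher in both and Sdc1 in GFP-positive cells (0.69, SE of 0.14 with the block and 0.20 without it). Of 5 tested genes of the wider family and close relatives outside the list followed here (Optc, Podn, Chadl, Nyx and Ecm2), 0 were called with or without the block. Podn, podocan, was at 549 and 326 in control, 461 and 151 in GFP-negative and 317 and 122 in GFP-positive cells.

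Most members lie in clusters, which allows a look at the genes beside them. In the RefSeq gene table (GRCm38.p6), Aspn, Omd and Ogn lie together on chromosome 13, Dcn, Lum, Kera and Epyc on chromosome 10, and Prelp and Fmod on chromosome 1. On chromosome 13, the protein-coding genes tested within 200 kb of the cluster were Bicd2, Ippk, Cenpp, Ecm2, Nol8 and Iars, and none was called with or without the block in either comparison with control. Their differences in GFP-positive cells ran from -0.11 to 0.46, against -2.70 (Aspn 1448421_s_at), -0.51 (Omd) and -1.38 (Ogn 1419662_at). Ecm2, which has leucine-rich repeats as the members do, was dim and scattered (117 and 13.7 in control, 54.3 and 56.4 in GFP-negative, 162 and 26.7 in GFP-positive cells). On chromosome 1, Btg2 (0.22 ± 0.30) and Optc (0.60 ± 0.55) flank Fmod and Prelp, and neither was called. Optc is itself a gene of the wider family, outside the list followed here. On chromosome 10 the single neighbour on the array, Ccer1, was too dim to be tested. Beside Bgn on the X chromosome, Dusp9 was called higher in GFP-positive cells with the block (1.49, SE of 0.29 with the block, adjusted p = 0.0121 by limma). Its signals were 92.5 and 99.8 in control, 176 and 229 in GFP-negative, and 289 and 367 in GFP-positive cells. Limma did not call it without the block (SE of 0.37, adjusted p = 0.297). None of the other 7 tested neighbours of Bgn was called.

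**Figure D4:**
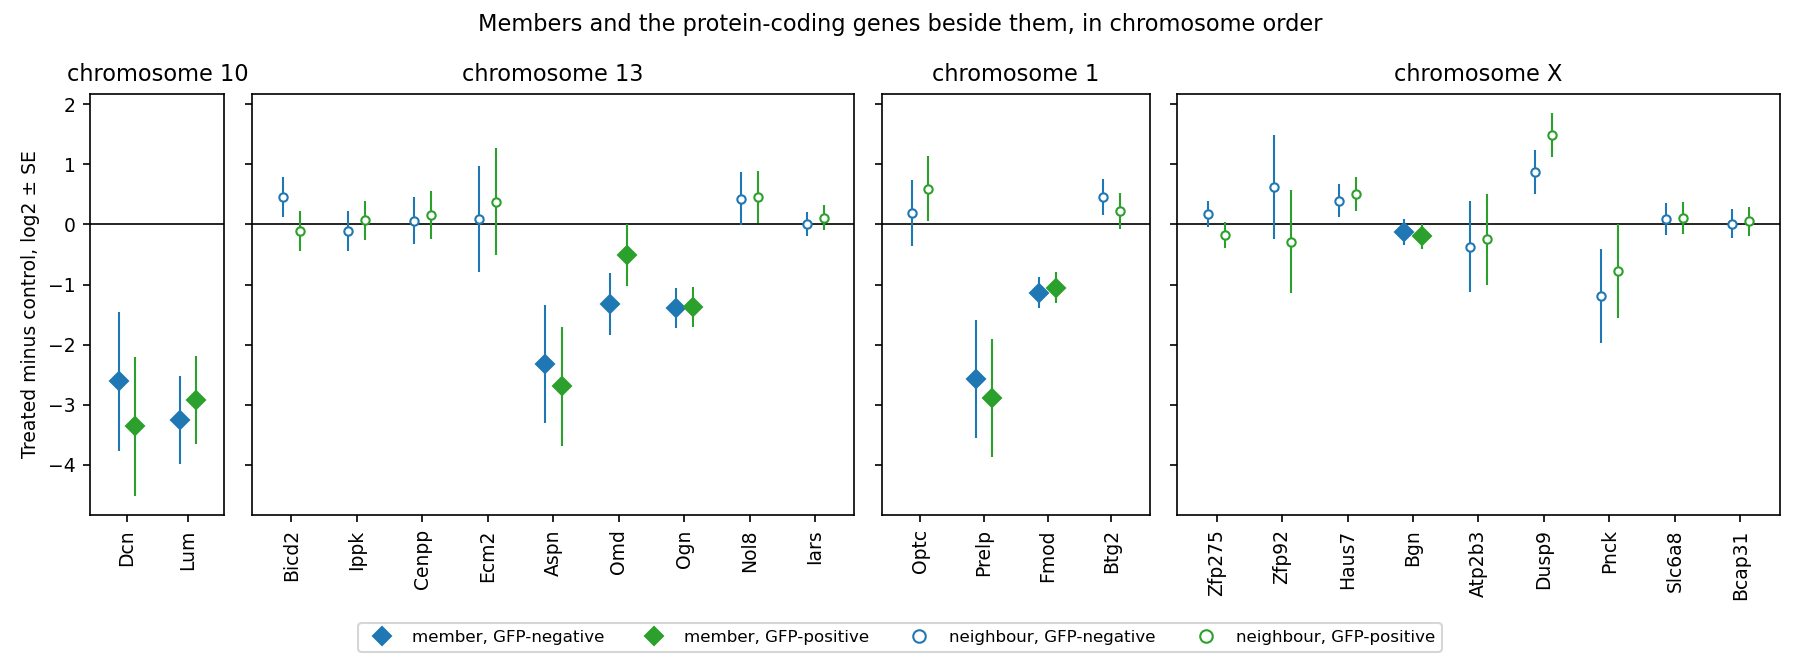
Treated minus control on the log2 scale (± SE without a block) for members (filled diamonds) and the protein-coding genes beside them (open circles), in chromosome order, at the brightest probe set of each gene. On chromosomes 13 and 1 the members lie below 0 and the neighbours around it, and on the X chromosome Bgn lies near 0 with Dusp9 above it.

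The patterns most like lumican and osteoglycin were looked for with Pearson's r over the 6 arrays, after subtracting the mean of each replicate number. For Lum the genes of highest r were Phf10 (0.999), Neu1, Hadh, Slc44a1 and Cst3, all with smaller differences than Lum (-0.25 to -0.71 against -2.92 in GFP-positive cells). For Ogn they were Gaa, Medag, Dcun1d1, Zfp772 and Gstm2 (-0.41 to -1.13 against -1.38). Medag, for example, had 801 and 1053 in control, 427 and 360.4 in GFP-negative and 455 and 358 in GFP-positive cells. Among the members, r with Lum was 0.973 for Ogn, 0.967 for Prelp, 0.959 for Aspn, 0.951 for Dcn, 0.940 for Fmod, 0.837 for Omd and 0.663 for Bgn. These values are descriptions over 6 arrays that share their 2 sets and 3 groups, and 2.05% of all probe sets reached 0.95 with Lum.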

How the data were processed

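The deposited values were linear signal intensities, 1 for each probe set on an array. The submitters' processing notes name MAS5, whose version is not given in the sources used here. Groups came from the labels. Signals were scaled to a 2% trimmed mean of 500 on each array, an offset of 30.64 was added (the 25th percentile, median of the 6 arrays), and log2 was taken, which understates differences of dim probe sets. Probe sets with a mean signal of at least 67.71 (the 40th percentile) were tested: 27022 probe sets of 13223 genes. Gene symbols came from the platform annotation, in which 34945 probe sets had 1 symbol, 932 several and 9160 none. Models were fitted in R 4.3.3 with limma 3.58.1 over all 6 arrays (eBayes with a trend, two-sided tests, Benjamini-Hochberg over all probe sets, adjusted p under 0.05 called), without and with the replicate number as a block, and were tested on simulated data. Every member probe set is named; of pathway lists, read at the brightest probe set of a gene, the genes called with or without the block are named. The rule also took the genes of smallest p in each list, of which uncalled ones are not all named. The members and lists were chosen with earlier results of these data known. Promoter and gene tables are from RefSeq (GRCm38.p6). The number of arrays limits the precision.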

Additional observations from a re-analysis of the deposited data

How the results depend on the processing

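Without a block, 0 member probe sets were called in each comparison under most alternatives (quantile normalization, other offsets and filters, no trend, fits on 2 groups, no _s_at, _x_at or _a_at probe sets, an adjusted p under 0.10, and leaving out each array). The exceptions were the replicate block, with 9 calls in GFP-positive and 8 in GFP-negative against control, median centring, with 1 and 1 (Prelp 1416322_at, which passed the filter through the control arrays alone; adjusted p = 0.0169 and 0.0368 by limma), and leaving out both rescaled arrays, chosen after seeing the data, with 1 and 1 (Aspn 1416652_at, -2.14 and -2.10, adjusted p = 0.0273 and 0.0347). The cause of these changes was not tested. Of the pairing, the labels say only that the numbers are biological replicates; the deviations of same-numbered arrays from their group means correlated at 0.513, 0.506 and 0.556 over the 3 pairs of groups. The replicate block changed no call between the treated groups. Scaling moved the median of all probe sets by under 0.1.

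The GFP-negative median of -1.09 moved to -0.91 with 4 times the offset, to -1.39 without _s_at, _x_at and _a_at probe sets, to -0.84 without the rescaled arrays, and to -1.51 to -0.84 on leaving out each array. The GFP-positive median of -1.08 moved to -0.97 with 4 times the offset and to -1.38 without _s_at, _x_at and _a_at probe sets. It was -0.81 without the rescaled arrays, and ran from -1.34 (without control replicate 2) to -0.76 (without control replicate 1) on leaving out each array. Leaving out Prelp 1416322_at, chosen after seeing the data, moved the medians to -1.05 and -1.05. The median between the treated groups moved to -0.085 with quantile normalization, 0.004 without the rescaled arrays, and -0.31 to 0.43 on leaving out each array. Single differences that changed sign were those of Bgn 1416405_at without the rescaled arrays (0.026 and 0.01 against control in GFP-positive and GFP-negative cells) and on leaving out each array (-0.36 to 0.026 and -0.16 to 0.01). On leaving out each array the GFP-positive difference from control ran from -1.95 to 0.12 at Fmod 1415939_at, -1.22 to 0.22 at 1437718_x_at, -1.29 to 0.19 at 1437324_x_at and -0.61 to 0.075 at 1438966_x_at, and the GFP-negative difference from -1.91 to 0.165 at 1415939_at. Between the treated groups it ran from -2.20 to 0.71 for Dcn and -0.61 to 1.28 for Lum. Among the members other than Fmod and Bgn, the differences from control that moved by over 1.5 times on leaving out an array were, in GFP-positive and GFP-negative cells, Dcn 1449368_at (-4.71 to -2.004 and -4.07 to -1.15), Aspn 1448421_s_at (-4.002 to -1.39 and -3.52 to -1.14), Prelp 1416321_s_at (-4.11 to -1.66 and -3.795 to -1.35), Ogn 1419663_at (-1.99 to -0.51 and -1.53 to -0.56) and, in GFP-positive cells, Omd (-0.72 to -0.31). The differences of Dcn, Aspn, Lum, Prelp, Ogn and Omd from control kept their sign under every alternative run.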
